A study of Mus musculus and Rattus norvegicus with 36 samples.

Results

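The keratins Krt19, Krt7, Krt8 and Krt18, together with the bile duct and progenitor markers Epcam, Sox9, Spp1, Cldn4, Cd24 and Afp, make up the 10 genes described here. They were chosen as all probe sets that the array annotation assigns to these symbols (Cd24a in the mouse). In the rat array 9 of the 10 genes had a probe set (9 probe sets, among 14216 genes with a symbol), and in the mouse array 9 of the 10 had at least 1 (20 probe sets, among 18193 genes). Sox9 in the rat and Spp1 in the mouse were not matched to a probe set and are not analysed here.

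Keratins are filament proteins that assemble in pairs of a type I and a type II chain. In adult rodent liver, hepatocytes make mainly the pair Krt8 and Krt18, whereas cholangiocytes, the cells that line the bile ducts, add Krt19 and Krt7. Epcam, Sox9, Spp1, Cldn4 and Cd24 mark cholangiocytes and the liver progenitor cells that appear around the ducts in an injured liver, and Afp marks fetal hepatocytes and some progenitors. In RNA from whole tissue, a change in the number of such cells and a change in the RNA of each cell cannot be told apart.

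Male weanling rats from Holtzman were fed a torula yeast basal diet with selenium (Se) added as sodium selenite for 28 days, with 3 rats per diet and 1 array per rat. In study 2 the added Se was 5, 2, 0.24 or none (the Se-deficient diet), and in study 1 it was 0.8 or 0.08, all in μg Se/g diet. The study treats 5 μg Se/g as a toxic intake. It reports reduced growth and raised plasma alanine aminotransferase, a marker of liver damage, in these rats. What part growth or liver damage had in the levels at this intake was not tested. Male weanling mice of a wild-type colony with a mostly C57 black background received the Se-deficient basal diet, or that diet with 0.05 or with 0.2 μg Se/g added, for 35 days, with 3 kidneys and 3 livers per diet. Livers had been perfused in situ with potassium chloride, and all diets, the Se-deficient one included, contained added vitamin E and methionine. The diets with 0.24 μg Se/g (rat) and 0.2 μg Se/g (mouse) served as Se-adequate controls. Levels are log2 expression values of a probe set, so a difference of 1 is a doubling, and a difference was called where limma gave an adjusted p under 0.05 over all probe sets.

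The arrays were alike in overall signal, with medians of 6.24 to 6.29 in rat liver, 6.24 to 6.29 in mouse kidney and 6.17 to 6.28 in mouse liver. The rat array of replicate 1 at 2 μg Se/g stood apart, with a mean correlation across probe sets of 0.973 with the other arrays of study 2, against 0.984 to 0.990 for the other 11. With the arrays of the same diet only, replicates 1 and 3 at 2 μg Se/g were alike, at 0.981 and 0.980, against 0.989 for replicate 2. The tissue labels held for a hepatocyte list of 15 genes, whose mean level was 8.42 to 8.998 in mouse kidneys and 12.71 to 12.89 in mouse livers, and a kidney tubule list of 11 genes, at 11.51 to 11.73 in kidneys and 5.56 to 5.91 in livers.

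Krt19, the type I keratin of ducts, rose at the highest intake, 5 μg Se/g. It was measured at 9.38, 8.53 and 8.22 in rats fed 5 μg Se/g, against 6.19, 6.37 and 5.67 in rats fed 0.24 μg Se/g. All 3 rats fed 5 μg Se/g lay above all 15 other rats, the highest of which reached 7.07. The means were 8.71 ± 0.60 at 5 μg Se/g, compared with 6.08 ± 0.36 in the Se-adequate rats (SD, 3 rats each), a difference of 2.63 (SE 0.32) or 6.199-fold, with a limma adjusted p of 0.0018. By p it ranked 54 of 31042 probe sets.

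In the other diets the level of Krt19 was 6.80, 6.66 and 6.04 in Se-deficient rats, 6.40, 6.52 and 6.195 at 0.08, 6.07, 6.51 and 6.15 at 0.8, and 6.28, 6.69 and 7.07 at 2 μg Se/g. These 4 diets overlapped with each other and with 0.24 μg Se/g. Ordered by their means, they ran from 0.24 (6.08) over 0.8 (6.24), 0.08 (6.37) and Se-deficient (6.50) to 2 μg Se/g (6.68), with SDs of 0.16 to 0.40, and neighbours in that order overlapped. Only the step to 5 μg Se/g, at 8.71, left no overlap with the diet next in order. According to the methods, the studies were normalized separately, but whether this holds for the deposited values is unsettled. Each diet was also measured in only 1 study. The place of the 2 diets of study 1 in this order is therefore a description without a test, as is any statement over all 18 rats. Krt19 passed the test at 5 against 0.24 μg Se/g in all 15 other settings tried whose estimates converged, with differences of 2.30 to 2.88 and adjusted p of 7.5e-05 to 0.012.

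**Figure D1:**
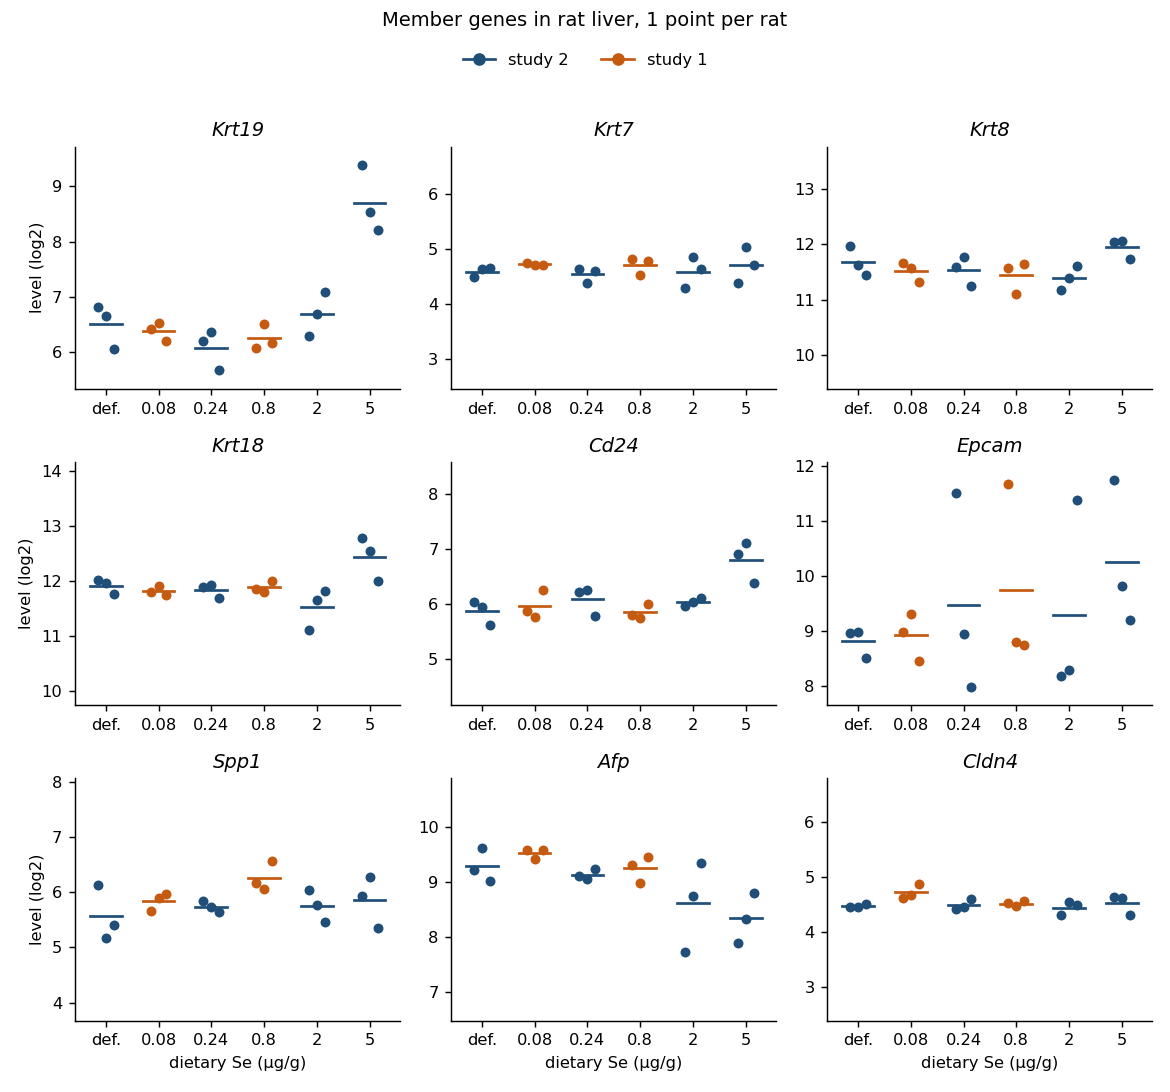
Levels (log2) of the 9 genes measured in rat liver against dietary Se (μg/g diet, def. is the Se-deficient diet), with 1 point per rat, a bar at the mean of 3 rats, and colour for the study. The vertical scale differs between genes and covers at least 4.4 log2 units. Krt19 at 5 μg Se/g lies between 8.22 and 9.38, above every other rat, while Epcam has 4 single rats at 11.38 to 11.75 in 4 different diets.

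Krt19 was the only 1 of the 9 measured genes called higher at 5 against 0.24 μg Se/g, and 0 were called lower. Over all genes 3.27% were called higher and 0.816% lower in this comparison, and 4.09% in either direction. The median difference of the 9 genes was 0.41, against −0.0044 over all 14216 genes. At 5 μg Se/g, 8 of the 9 means were higher, and 3 genes (Krt19, Krt18 and Cd24) were higher without overlap between the groups, which was so for 15.1% of all genes. Afp was lower without overlap, as were 11.7% of all genes. One fit of all rat arrays, whose totals match those of the study, called Cd24 higher as well as Krt19. That fit called 2.93% of all probe sets higher and 0.908% lower.

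Krt7, the type II keratin that ducts pair with Krt19, had a level of 4.38, 5.04 and 4.72 at 5 μg Se/g, against 4.64, 4.39 and 4.599 at 0.24 μg Se/g. The groups overlapped, and the difference of 0.17 (SE 0.17) was not called. Over the 18 rats its level ranged only from 4.29 to 5.04. Whether so low a level is above the array background was not tested, since no detection calls were used.

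Krt8 and Krt18, the type II and type I partner keratins of hepatocytes, were both highest in mean at 5 μg Se/g. Krt18 was at 12.79, 12.55 and 12.005 in rats fed 5 μg Se/g, against 11.90, 11.94 and 11.69 in rats fed 0.24 μg Se/g. Krt8 was at 12.05, 12.06 and 11.73 at 5 μg Se/g, against 11.59, 11.78 and 11.24 at 0.24 μg Se/g. The groups did not overlap for Krt18 and overlapped for Krt8, and neither difference was called, at 0.60 (SE 0.21, limma adjusted p 0.19) for Krt18 and 0.41 (SE 0.18, limma adjusted p 0.31) for Krt8. Without replicate 3 at 5 μg Se/g, the rat with the lowest Krt18 of its diet, the Krt18 difference was 0.83 with an adjusted p of 0.043, in a fit that called 3.43% of all probe sets against 2.82% with every array.

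In the mouse genome the genes of these partner chains are neighbours on chromosome 15, with their start sites facing each other across 23.9 kb. Because their levels varied together across rats, the promoter windows of both genes from RefSeq (mouse build GRCm38.p6) are shown, each from 250 bases before to 50 bases after the start site. Such variation was not particular to this pair. Within diets, Krt19, on mouse chromosome 11, went with Krt18 (r = 0.88) and Krt8 (0.83), against 0.79 for Krt8 with Krt18. The Krt8 window is chr15:102004293-102004592 on the minus strand and the Krt18 window is chr15:102027966-102028265 on the plus strand. The rat sequences were not used here.
Krt8: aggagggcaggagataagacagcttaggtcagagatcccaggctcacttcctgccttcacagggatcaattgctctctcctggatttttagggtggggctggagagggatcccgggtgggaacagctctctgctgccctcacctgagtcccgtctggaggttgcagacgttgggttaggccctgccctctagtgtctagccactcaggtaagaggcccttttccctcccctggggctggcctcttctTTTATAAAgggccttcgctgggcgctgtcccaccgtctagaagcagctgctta
Krt18: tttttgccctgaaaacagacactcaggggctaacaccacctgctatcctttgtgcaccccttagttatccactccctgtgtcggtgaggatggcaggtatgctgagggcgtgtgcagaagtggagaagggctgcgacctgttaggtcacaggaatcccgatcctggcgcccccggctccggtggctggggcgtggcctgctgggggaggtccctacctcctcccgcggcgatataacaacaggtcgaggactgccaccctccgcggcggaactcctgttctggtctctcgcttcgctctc
Capitals mark matches, on either strand, to 5 short motifs: the AP-1 motif TGANTCA, the Sp1 type motif GGGCGG, the TEAD type motif CATTCC, the antioxidant response element core TGACNNNGC and the TATA box TATAAA. The Krt8 window held TATAAA, on both strands with overlapping letters, as did 13.6% of the 32851 mouse promoter windows, and the Krt18 window held none of the 5. The Krt8 matches begin at −3 and −1 from the annotated start site, so they lie across that site. Windows were found for 7 of the 10 genes. GGGCGG was in those of Krt7, Epcam and Cldn4 (35.7% of all windows), TGANTCA in that of Cldn4 (7.81%), and TATAAA also in those of Spp1 (from −211) and Afp (from −7). These are matches of letters only, and promoter activity was not measured.

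Cd24, a small glycosylated surface protein of progenitor and duct cells, was at 6.91, 7.12 and 6.38 at 5 μg Se/g, against 6.23, 6.26 and 5.79 at 0.24 μg Se/g. Every rat of the 5 μg Se/g diet lay above the other 15 rats, whose highest level was 6.26. The difference of 0.71 (SE 0.19) missed the threshold, with a limma adjusted p of 0.080. It passed in 3 of 14 other settings, the fit with all rat arrays and the replicate block (adjusted p 0.039 in both) and the fit without one array. Without replicate 3 at 5 μg Se/g the difference was 0.92 (adjusted p 0.013).

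Epcam, the adhesion molecule of duct epithelium, varied more within diets than between them. Its level was 11.75, 9.83 and 9.21 at 5 μg Se/g, against 11.51, 8.96 and 7.98 at 0.24 μg Se/g. For the other diets it was 8.97, 8.98 and 8.51 in Se-deficient rats, 8.98, 9.32 and 8.47 at 0.08, 11.68, 8.81 and 8.75 at 0.8, and 8.20, 8.29 and 11.38 at 2 μg Se/g. Thus 4 of 18 rats, 1 in each of 4 diets, lay at 11.38 to 11.75 and the other 14 at 9.83 or below, with a gap of 1.55 between the sets. Within their diets of 3, these 4 rats ranked 1st, 1st, 2nd and 3rd for Krt19, so that a high Epcam level did not always go with a high Krt19 level. The difference of 0.78 at 5 against 0.24 μg Se/g had an SE of 0.99 and was not called.

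Spp1 (osteopontin) and Cldn4 (a tight junction protein of duct epithelium) showed no difference at 5 against 0.24 μg Se/g beyond their spread. Spp1 was at 5.94, 6.28 and 5.35 at 5 μg Se/g, against 5.84, 5.74 and 5.65 at 0.24 μg Se/g, a difference of 0.11 (SE 0.27). Cldn4 stayed between 4.30 and 4.88 in all 18 rats, with a difference of 0.03 (SE 0.11).

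Afp, the fetal serum protein, was the only gene of the set with a lower mean at 5 μg Se/g. Afp was at 7.89, 8.33 and 8.80 at 5 μg Se/g, against 9.10, 9.05 and 9.24 at 0.24 μg Se/g, without overlap. The difference of −0.79 (SE 0.34) was not called, with a limma adjusted p of 0.31. Rats fed 2 μg Se/g had levels of 7.73, 8.75 and 9.34, and the lowest of these was the array that stood apart.

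Against 2 μg Se/g, the next lower intake in the same study, Krt19 and Krt18 were called higher at 5 μg Se/g, and 0 genes were called lower. This made 2 of 9 genes, where 3.22% of all genes were called higher and 1.3% lower. Krt19 differed by 2.03 (SE 0.32, limma adjusted p 0.010) and Krt18 by 0.91 (SE 0.21, limma adjusted p 0.040), and Cd24 (0.76, SE 0.19, adjusted p 0.052) and Krt8 (0.55, SE 0.18, adjusted p 0.10) did not pass. All 4 were higher without overlap, as were 14.2% of all genes. The rats fed 2 μg Se/g had Krt18 levels of 11.12, 11.65 and 11.83, and the lowest was again the array that stood apart. Without that array the Krt18 difference was 0.71 with an adjusted p of 0.12, and Krt18 also lost its call without replicate 2 at 2 μg Se/g (adjusted p 0.12) or without replicate 1 (0.16) or 2 (0.14) at 5 μg Se/g. Cd24 passed in 4 of 13 other settings whose estimates converged, some of which kept every array. Leaving out replicate 3 at 5 μg Se/g brought it past the threshold (adjusted p 0.011). Leaving out replicate 3 at 2 μg Se/g did so for Cd24 (0.018) and Krt8 (0.024), but that fit called 26.6% of all probe sets, against 3.34% with every array and 3.49% without the 5 μg Se/g array. With only these 2 diets in the fit neither gene passed, at an adjusted p of 0.12 for Krt19 and 0.23 for Krt18.

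**Figure D2:**
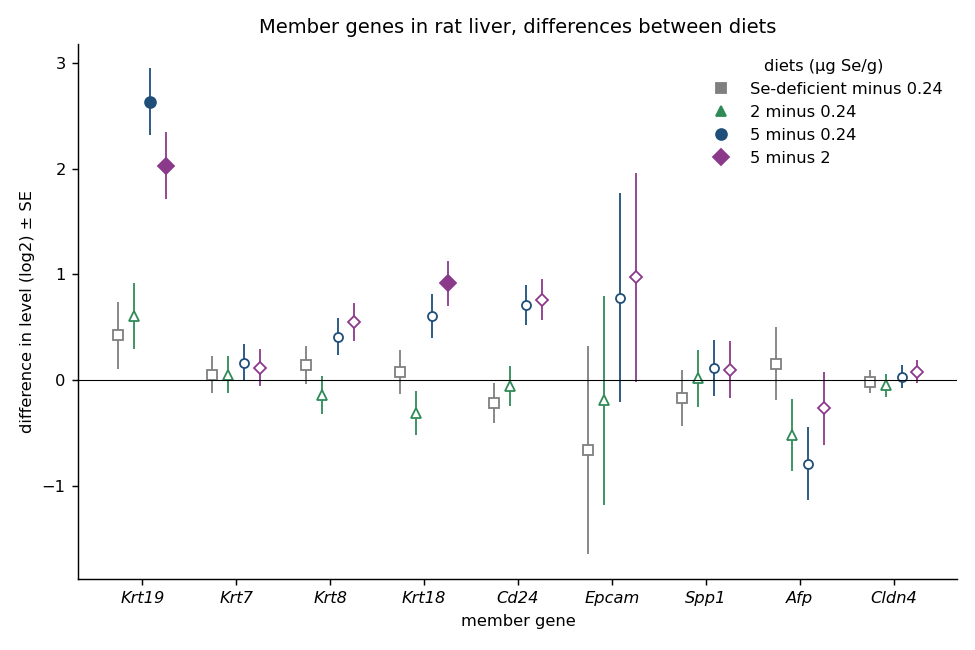
Differences in level (log2, vertical axis) between diets of rat study 2 for each gene, with bars of 1 SE, filled symbols where the limma adjusted p was under 0.05 and open symbols otherwise. Krt19 at 5 μg Se/g is 2.63 above 0.24 μg Se/g and 2.03 above 2 μg Se/g, while Se-deficient and 2 μg Se/g rats differ from 0.24 μg Se/g by at most 0.66 for every gene.

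At the intakes up to 2 μg Se/g no gene of the set was called. For 2 against 0.24 μg Se/g limma called 0 of 9 (0 also at an unadjusted p under 0.05), where it called 0.00703% of all genes and 18.7% had an unadjusted p under 0.05. The differences lay between −0.52 (Afp) and 0.61 (Krt19, SE 0.32, adjusted p 0.35). For Se-deficient against 0.24 μg Se/g limma called 0 of 9 (0 also at an unadjusted p under 0.05), with differences of −0.66 (Epcam) to 0.42 (Krt19). Of all genes 0.00703% were called there and 3.55% had an unadjusted p under 0.05.

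In study 1, 0.8 against 0.08 μg Se/g gave 0 calls among the 9 genes and 0% among all genes in limma. Of all genes 5.18% had an unadjusted p under 0.05. Among the 9 there was 1 such gene, Spp1, at 6.18, 6.06 and 6.56 at 0.8 μg Se/g, against 5.66, 5.89 and 5.96 at 0.08 μg Se/g. These groups did not overlap, and the difference was 0.43 (SE 0.15) with an adjusted p of 0.97. Cldn4 was lower at 0.8 μg Se/g without overlap, at 4.52, 4.47 and 4.55, against 4.62, 4.67 and 4.88 at 0.08 μg Se/g. Over all genes 4.01% were higher and 5.99% lower without overlap.

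Across the 12 rats of study 2, Krt8 and Krt18 varied together, with Pearson r of 0.90 over all rats and 0.79 after the mean of each diet was removed. Krt19 went with Krt18 (0.80 over all, 0.88 within diets), Krt8 (0.75 and 0.83) and Cd24 (0.87 and 0.69), and less with Epcam (0.53 and 0.72). With Krt7 the values were 0.19 and −0.29, and with Afp −0.50 and 0.11. These values describe 12 arrays that share one normalization, and the 3 rats at 5 μg Se/g carry much of the range. Among 9462 genes compared, the patterns most like that of Krt19 over these 12 rats were those of Asns, the asparagine synthetase (r = 0.97), B4galt6, an enzyme of glycolipid synthesis (0.97), and Vegfc, a growth factor of lymphatic vessels (0.97), with 0.80, 0.79 and 0.86 within diets.

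**Figure D3:**
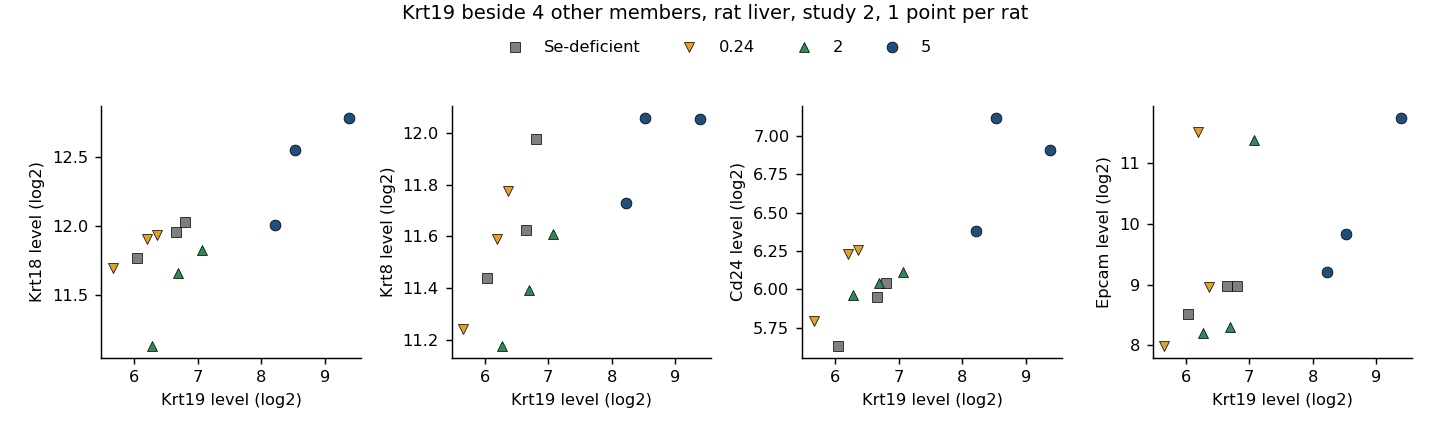
Level of Krt19 (log2, horizontal axis) against that of Krt18, Krt8, Cd24 and Epcam (log2, vertical axes) in the 12 rats of study 2, with 1 point per rat and a symbol per diet (μg Se/g). Those fed 5 μg Se/g lie to the right of all others, and the Epcam panel shows 3 rats above 11 with Krt19 levels from 6.19 to 9.38.

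Most other markers of bile duct epithelium were not called at 5 against 0.24 μg Se/g. Of 27 further duct genes measured, 2 were called higher, 0 lower and 25 not at all, with a median difference of 0.15, where 3.27% of all genes were called higher. They were Aqp1, a water channel (1.80, SE 0.35, limma adjusted p 0.020), and Anxa4, an annexin (0.63, SE 0.11, adjusted p 0.013). Against 2 μg Se/g, Cldn3 (0.996), a tight junction protein, and Tspan8 (1.88), a tetraspanin, were called as well. Duct genes that were not called at 5 against 0.24 μg Se/g included Cftr (0.06, SE 0.09), the chloride channel of cholangiocytes, Sctr (0.28, SE 0.27), their secretin receptor, and Krt23 (−0.05, SE 0.11). In that comparison the means of 19 of the 27 were higher and of 8 lower. Without overlap 8 were higher and 2 lower, against 15.1% and 11.7% of all genes. At an unadjusted p under 0.05 there were 7 of the 27, against 17.1% of all genes. The mean level of the 27 genes was 6.996 to 7.39 in rats at 5 μg Se/g, against 6.87 to 6.95 at 0.24 μg Se/g.

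Among 15 further genes of progenitors and reactive ducts, 4 were called higher and 0 lower, with a median of 0.06. These were Tnfrsf12a (1.60, SE 0.36), the receptor of the cytokine TWEAK, Vim (1.58, SE 0.25), the filament protein of mesenchymal cells, Cxcl16 (1.30, SE 0.26), a chemokine, and Sox4 (1.19, SE 0.23), a transcription factor. The stem cell and progenitor markers Prom1 (0.10, SE 0.19) and Lgr5 (−0.14, SE 0.13) were not called. Of the 15 means 9 were higher and 6 lower, and without overlap 5 genes were higher and 3 lower, against 15.1% and 11.7% of all genes. Of 10 fetal liver genes, Gpc3 (1.89, SE 0.25), a surface proteoglycan, and Aldoa (0.996, SE 0.24), a glycolytic enzyme, were called higher, and Igf2bp3 (−1.11, SE 0.22), an RNA-binding protein, was called lower. Of 10 genes that link keratins to desmosomes and the membrane, the linkers Ppl (1.60, SE 0.25) and Plec (0.73, SE 0.10) were called higher and 0 lower. The counts of these lists stand beside 3.27% of all genes called higher and 0.816% called lower.

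Markers of other liver cells moved beside these genes at 5 against 0.24 μg Se/g, where 3.27% of all genes were called higher and 0.816% lower. Of 11 genes of stellate cells and myofibroblasts, 6 were called higher (Tagln, Lox, Col1a1, Col1a2, Des and Acta2, by 0.90 to 2.68) and 1 lower (Lrat, −2.11), and their mean level was 8.54 to 8.76 at 5 μg Se/g, against 7.71 to 8.08 at 0.24 μg Se/g. Vim is also made by these cells. Of 10 macrophage genes 0 were called higher and 1 lower (Clec4f, −1.78), with a mean level of 8.91 to 9.07, against 9.02 to 9.32. Limma called 0 of 15 hepatocyte genes (mean level 13.37 to 13.41 at 5 μg Se/g, against 13.36 to 13.48 at 0.24 μg Se/g), 0 of 8 leukocyte genes (6.29 to 6.68, against 6.12 to 6.40), 0 of 14 cell cycle genes, 0 of 6 genes of mesothelium, whose cells also make these keratins (6.23 to 6.34, against 6.19 to 6.45), and 0 of 11 kidney tubule genes. At an unadjusted p under 0.05 there were 1 hepatocyte, 1 leukocyte, 0 cell cycle, 1 mesothelial and 3 kidney tubule genes. The stellate cell list had 8 of 11 and the macrophage list 2 of 10, and over all genes the share was 17.1%. The part of these cell types in the level of Krt19 was not tested.

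**Figure D4:**
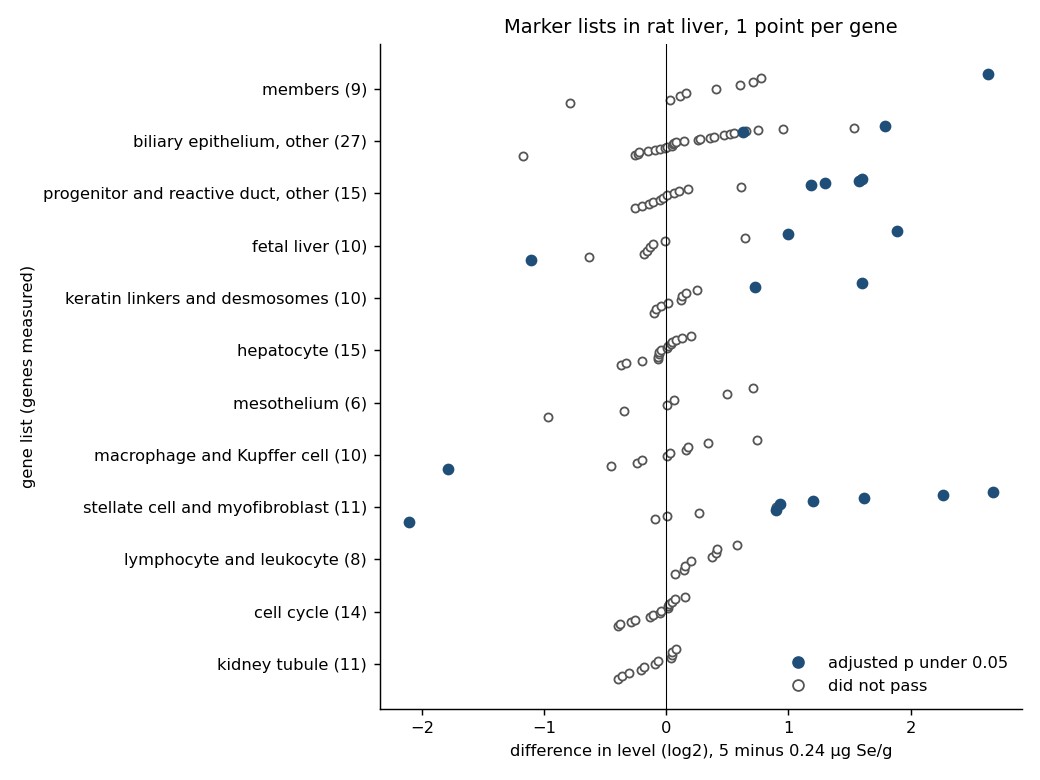
Difference in level (log2, horizontal axis) at 5 minus 0.24 μg Se/g in rat liver for each gene of 12 marker lists, with the number of genes measured in brackets, filled points where the limma adjusted p was under 0.05 and open points otherwise. Krt19 is the filled point at 2.63 in the top row, and the stellate cell and myofibroblast row holds 6 filled points above 0 and 1 at −2.11.

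In mouse liver, where no diet exceeded 0.2 μg Se/g, none of the 9 genes was called. Krt19 was at 6.62, 6.43 and 6.34 in Se-deficient livers, at 6.38, 6.14 and 6.49 with 0.05 μg Se/g and at 6.41, 6.35 and 6.53 with 0.2 μg Se/g, and all groups overlapped. Its difference was 0.04 (SE 0.11) for Se-deficient and −0.09 (SE 0.11) for 0.05 against 0.2 μg Se/g. Limma called 0 of 9 for Se-deficient against 0.2 μg Se/g, where it called 0.0385% of all genes, and 0 of 9 for 0.05 against 0.2 μg Se/g, where it called 0%. At an unadjusted p under 0.05 there were 1 and 0 genes, against 3.9% and 1.71% of all genes. The 1 was Cd24a, at 5.16, 5.37 and 4.99 in Se-deficient livers, against 5.31, 5.37 and 5.80 at 0.2 μg Se/g, a difference of −0.32 (SE 0.14, adjusted p 0.93). Its other 2 probe sets did not share this direction, with differences of 0.02 and 0.27.

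Over all 20 mouse probe sets the differences in liver lay between −0.32 and 0.27 for the Se-deficient diet and between −0.17 and 0.18 for 0.05 μg Se/g, with SEs of 0.07 to 0.19. In kidney they lay between −0.46 and 0.30 and between −0.48 and 0.17, with SEs of 0.07 to 0.25. Limma called 0 of 9 genes in kidney in either comparison (0 also at an unadjusted p under 0.05), where it called 0.0165% of all genes for the Se-deficient diet and 0% for 0.05 μg Se/g. An unadjusted p under 0.05 was reached by 5.69% and 2.89% of all genes. A test of whether the diet difference in liver differed from that in kidney called 0 of 9 genes for the Se-deficient diet (0.0055% of all genes) and 0 of 9 for 0.05 μg Se/g (0% of all genes). At an unadjusted p under 0.05 there were 0 in both, against 5.44% and 1.8% of all genes. This test treated the 18 arrays as separate animals, although liver and kidney may come from the same mice.

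The tissues themselves differed in these genes. They were normalized separately, so levels are set side by side without a test, over 9 kidneys and 9 livers. Krt7 was at 8.89 to 9.50 in kidneys and 5.07 to 5.33 in livers. Cd24a was at 10.27 to 10.77 in kidneys and 4.99 to 5.80 in livers, and its 2 other probe sets also showed all kidneys above all livers. Epcam was at 10.21 to 10.65 in kidneys and 6.42 to 6.80 in livers by 1 probe set, and at 8.58 to 8.94 in kidneys and 7.78 to 8.23 in livers by the other. The second has the suffix for probe sets that can share probes with other transcripts. Both placed every kidney above every liver, by 3.81 and by 0.76 in the mean. Cldn4 was likewise higher in all kidneys, at 6.99 to 7.66 in kidneys and 6.28 to 6.62 in livers.

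The hepatocyte keratins had the opposite order. Krt18 was at 6.91 to 8.33 in kidneys and 10.97 to 11.44 in livers, a difference in means of −3.54, and the 3 probe sets of Krt8 differed by −1.29, −1.65 and −1.43, with every kidney below every liver. Krt19 overlapped between the tissues, at 5.89 to 6.80 in kidneys and 6.14 to 6.62 in livers. Sox9, a transcription factor of duct and tubule precursors, was low in both, with its brightest probe set at 5.55 to 5.74 in kidneys and 5.35 to 5.59 in livers. For Afp, 2 of 5 probe sets placed every kidney below every liver, among them the brightest at 5.33 to 5.69 in kidneys and 6.33 to 6.77 in livers.

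**Figure D5:**
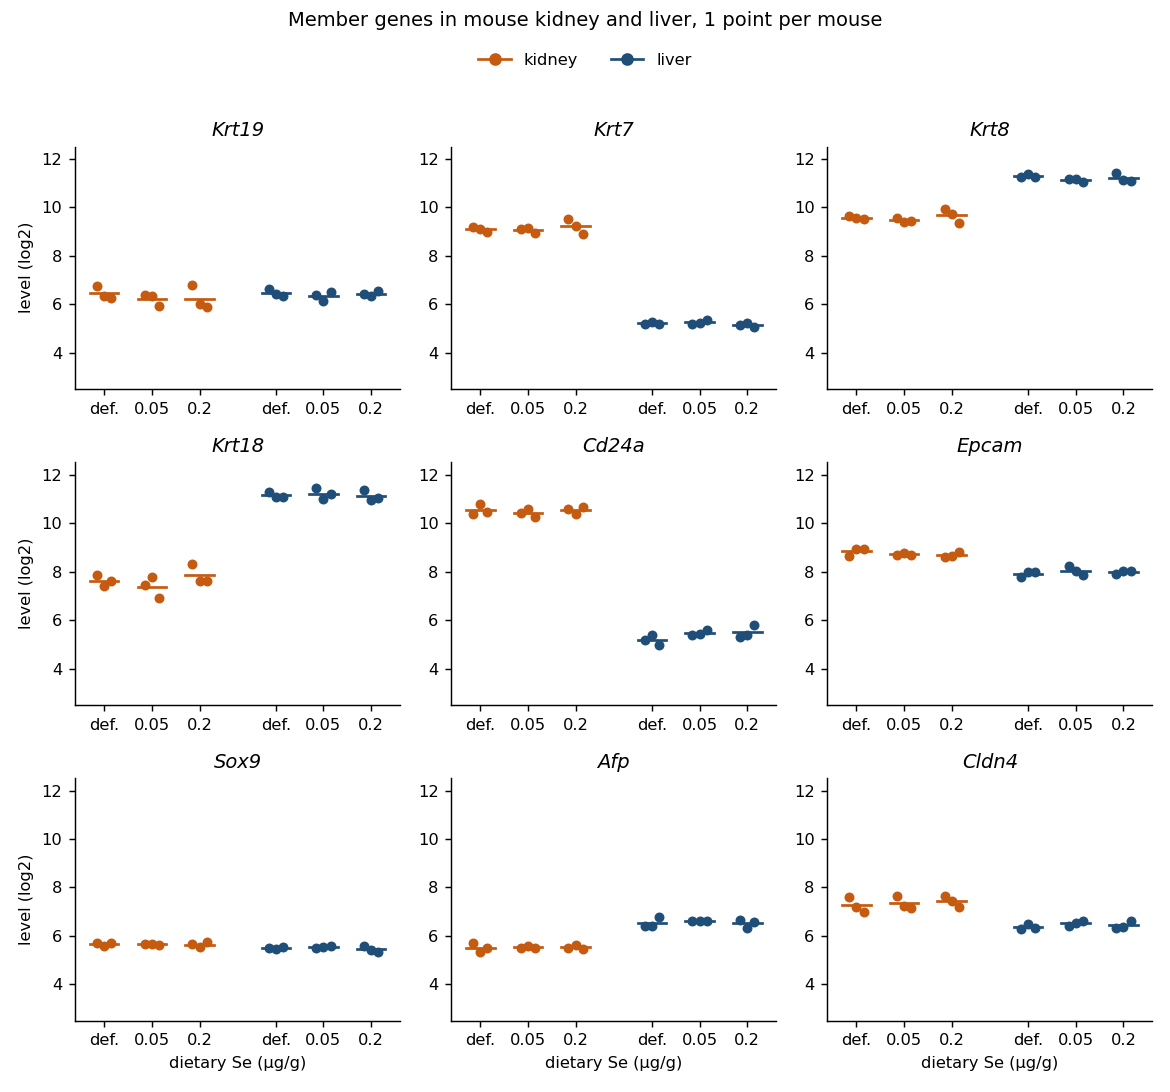
Levels (log2, vertical axis, the same scale for all genes) of 9 genes in mouse kidney and liver at each dietary Se (μg/g diet, def. is the Se-deficient diet), with 1 point per mouse, a bar at the mean of 3, and the probe set with the highest mean in liver for each gene. Krt7 and Cd24a lie higher in kidney and Krt8 and Krt18 higher in liver, and within each tissue the Se-deficient and 0.05 μg Se/g mice overlap with those at 0.2 μg Se/g.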

How the data were processed

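RNA of 36 tissue samples, 18 rat livers, 9 mouse livers and 9 mouse kidneys, was hybridized to 1-colour Affymetrix arrays, 1 array per sample and 3 per diet. The values that the authors deposited are log2 expression levels, 1 per probe set, made from the scans with GCRMA according to the submitters' processing notes, while the methods of the study name RMA, run separately per study and per mouse tissue. Which of the GCRMA and RMA methods made the values is unsettled, and their background corrections differ most at low signal. They were used as deposited. Precision is limited by how few arrays there are and, at low signal, by the background correction.

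Probe sets were named from the platform annotation. Array controls were left out of the tests (57 in the rat, 64 in the mouse), and the other 31042 and 45037 probe sets were tested with limma 3.58.1 in R 4.3.3 (lmFit with 1 coefficient per diet, eBayes defaults, Benjamini-Hochberg adjustment, threshold 0.05). The 12 arrays of rat study 2, the 6 of rat study 1 and the 9 of each mouse tissue were fitted separately. The liver and kidney responses were compared in a fit of all 18 mouse arrays, without a term for the mouse. Which rat diets belong to which study was taken from the text of the study. At 5 against 0.24 μg Se/g, the fit of study 2 called 686 probe sets higher and 189 lower. One fit of all 18 rat arrays called 911 higher and 282 lower. Together these last 2 counts equal the total that the study reports for 5 μg Se/g. For 2 μg Se/g the same fit called 5 higher and 1 lower, and for Se-deficient rats 2 higher and 4 lower. Those counts also match what the study lists, so its contrasts may rest on such a fit. The fit of study 2 called 1 higher and 0 lower at 2 μg Se/g, and 0 higher and 1 lower in Se-deficient rats. With 3 samples against 3 the smallest exact p is 0.10. Counts of genes use 1 probe set per gene, the brightest on average in that fit.

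All 10 genes were tested wherever measured, and those not named in a comparison are given by their range and counts. Of each other list, the called genes were named, at most 6 by smallest p, as well as a few uncalled ones chosen after their values were seen. The 10 genes and all lists were chosen with earlier results of these data known. Same-numbered arrays of Se-deficient and 0.2 μg Se/g mouse livers deviated together (r 0.105 to 0.462, all above the limit of 0.1), so the numbers may pair them. In every other comparison of diets 1 or more pairs lay below it. The fits were tested on simulated data. Promoter windows came from RefSeq tables, and figures were drawn with matplotlib 3.10.9.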

Additional observations from a re-analysis of the deposited data

How the results depend on the processing

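Each count of called genes was recomputed with only the diets compared in the fit, with every array of a species fitted together, with limma's trend and robust options, with array weights, without probe sets below the median level, after quantile normalization, after a shift of each array to one median, with a replicate block, and without each array in turn. Of 352 recomputed counts for the 22 counts of the 10 genes, 337 stayed within 1.5 times the count given. Most of the 22 counts were 0, and a 0 that stayed 0 is among the 337. That total therefore says little about the counts above 0, whose shifts follow. Of 165 recomputed differences of single genes 144 kept their direction and side of the threshold, 7 lost their call, 14 gained one and 0 changed direction. Both totals include the array weights, which did not converge in rat study 2. At 5 against 0.24 μg Se/g, where 1 gene (Krt19) was called higher, all rat arrays in one fit gave 2 (Krt19 and Cd24), array weights 3 (with Krt18) and 1 lower (Afp), where they called 10.3% of all probe sets, the replicate block 2 (Krt19 and Cd24), and leaving out single arrays 1 to 3, the 3 coming without replicate 3 at 5 μg Se/g. At 2 against 0.24 μg Se/g array weights gave 2 higher (Krt19 and Krt7) and 1 lower (Epcam), in place of 0, where they called 42% of all probe sets. The estimate of the array weights did not converge in this rat study and gave replicate 2 at 2 μg Se/g a weight of 154, against 0.163 to 1.72 for the other arrays, so nothing was drawn from these calls. At 5 against 2 μg Se/g, where 2 genes were called, the fit of only those diets gave 0, array weights 5 higher and 1 lower (Afp), among 48.2% of all probe sets, and leaving out single arrays 1 to 4, with 4 without replicate 3 at 2 μg Se/g (26.6% of all probe sets called) and 1 without replicate 1 or 2 of either diet. In that comparison the replicate block put Krt18 at an adjusted p of 0.057. Over the samples of rat liver the numbers do not pair the arrays by the limit used, and in mouse liver the replicate block left the count at 0. The cause of these shifts was not tested. Levels under about 5, as of Krt7 and Cldn4 in the rat, may lie near the array background, where the arrays resolve differences least. Spp1 (5.84) and Cd24 (6.11) over all rats, and Krt19 at 0.24 μg Se/g (6.08), also had means below the array medians of 6.24 to 6.29. How far the size of their differences depends on the background correction was not tested.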
